A study of Mus musculus with 2 samples.

Results

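The genes of the muscle acetylcholine receptor and of its clustering machinery at the neuromuscular junction were examined in C2C12 myoblasts, an established line of mouse muscle precursor cells. The members were chosen by name: the receptor subunits Chrna1, Chrnb1, Chrnd, Chrng and Chrne, and the pathway genes Agrn, Lrp4, Musk, Dok7 and Rapsn, with every RefSeq entry of these symbols. These 10 genes have 12 of the 24165 entries in the table of gene activity. Nascent RNA was measured by GRO-seq, in which engaged RNA polymerases run on in isolated nuclei and the bromouridine-labelled RNA is captured and sequenced. The only group is untreated, subconfluent myoblasts with 2 replicate libraries, which the authors pooled into 1 value per entry. Every level below is therefore a single value with no standard deviation and no test, and the culture holds muscle cells alone, without nerve. Activity is given in RPKmM, the density of sense-strand reads per kilobase of mappable gene body, scaled to the number of reads, and an entry that did not exceed gene deserts is called inactive. The table does not give the depth of the libraries, so no counting interval was computed. Variation between the libraries cannot be computed from pooled values. The only error that the table gives for a value is its rounding to 2 decimals, which leaves 0.005 on either side.

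The muscle acetylcholine receptor is a pentameric channel that opens when the motor nerve releases acetylcholine. It holds a pair of alpha subunits with beta, delta and either gamma, which is typical of fetal muscle, or epsilon, which replaces gamma in adult muscle. Agrin, a proteoglycan of the synaptic basal lamina, binds LRP4 on the muscle surface and thereby activates the receptor tyrosine kinase MuSK. DOK7 is the cytoplasmic adaptor that MuSK needs for its activation, and rapsyn is the scaffold that holds the receptors in clusters. Transcription factors of the MyoD family bind E-boxes in subunit promoters, and ETS factors of the GABP type bind the N-box, an element known for synapse-specific transcription.

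The sequences before the transcription start of 4 receptor genes are shown because these letters are what the known regulators of the subunits recognise. They are the 250 bases upstream of the RefSeq start on GRCm38.p6, written 5′ to 3′ in the direction of transcription, and capitals mark each E-box (CANNTG) and N-box (TTCCGG, here on the opposite strand). Chrna1 lies at chr2:73580339-73580588 (minus strand), Chrnb1 at chr11:69795938-69796187 (minus), Chrng at chr1:87205561-87205810 (plus) and Chrne at chr11:70619195-70619444 (minus).
Chrna1: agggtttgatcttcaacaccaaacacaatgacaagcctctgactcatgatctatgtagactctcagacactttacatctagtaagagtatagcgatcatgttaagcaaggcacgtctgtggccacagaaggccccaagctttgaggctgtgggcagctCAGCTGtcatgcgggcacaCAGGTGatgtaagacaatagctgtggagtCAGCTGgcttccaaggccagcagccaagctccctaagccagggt
Chrnb1: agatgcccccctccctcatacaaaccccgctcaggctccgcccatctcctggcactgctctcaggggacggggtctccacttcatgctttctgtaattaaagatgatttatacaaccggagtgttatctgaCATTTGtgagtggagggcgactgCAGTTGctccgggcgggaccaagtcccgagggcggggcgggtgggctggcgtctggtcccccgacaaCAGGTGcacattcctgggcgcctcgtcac
Chrng: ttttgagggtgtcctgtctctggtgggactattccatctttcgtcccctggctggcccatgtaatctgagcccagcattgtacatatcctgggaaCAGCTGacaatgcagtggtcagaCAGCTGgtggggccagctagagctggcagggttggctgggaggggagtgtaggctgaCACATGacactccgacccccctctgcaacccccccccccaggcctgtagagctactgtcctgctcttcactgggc
Chrne: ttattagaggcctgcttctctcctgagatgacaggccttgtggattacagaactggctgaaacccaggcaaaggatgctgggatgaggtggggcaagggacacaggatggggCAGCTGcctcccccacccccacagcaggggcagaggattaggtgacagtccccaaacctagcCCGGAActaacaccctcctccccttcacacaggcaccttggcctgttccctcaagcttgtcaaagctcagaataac

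The promoter table matched 7 of the 10 members in 9 windows of 300 bases (250 before and 50 after a start). Chrnd, Rapsn and Lrp4 were not matched. An E-box was found in 7 of the 9 windows, against 72.3% of all 32841 promoter windows, so its mere presence is common. The promoters of Chrna1, Chrnb1, Chrng and Musk held 3 E-boxes each, a number reached by 17.6% of all windows. The symmetric E-box CAGCTG, singled out after the promoters had been seen, starts 92 and 44 bases before the start of Chrna1 and 155 and 132 bases before that of Chrng. At least 2 such E-boxes were found in 1.90% of all windows. Chrne and Musk held 1 each, 138 and 68 bases before the start, and Chrnb1 held none of this form. At least 1 CAGCTG was thus found in 4 of the 9 member windows and in 16.3% of all windows. The N-box occurred in 1 member window, that of Chrne at 76 bases before the start, and in 14.9% of all windows. Thus the promoter of the inactive epsilon gene held both kinds of motif, and the most active member, Chrna1, had no N-box in this window. A match of letters is not evidence of binding, and no match says only that the letters are absent from the window.

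**Figure D1:**
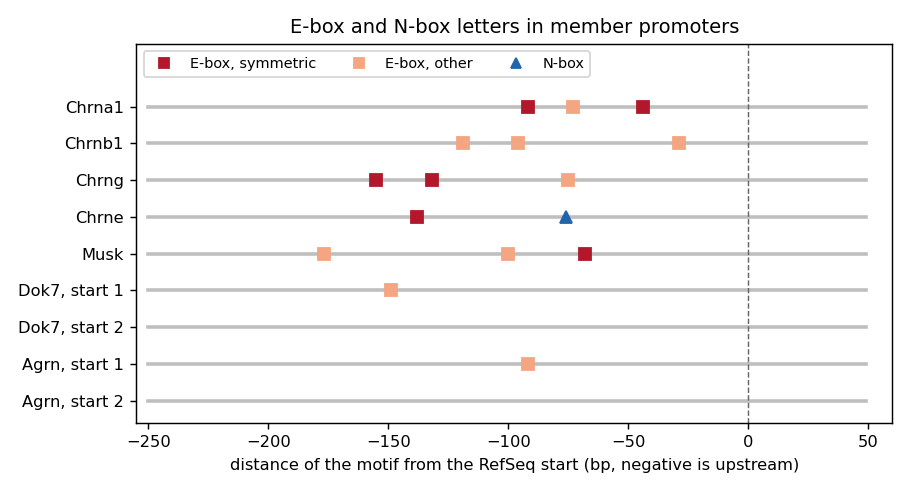
Position of E-boxes and the N-box in the 9 promoter windows of 7 member genes; the horizontal axis is the distance in bp from the RefSeq start (dashed line), each grey bar is a window of 300 bases on GRCm38.p6, dark squares are the E-box CAGCTG, light squares are other E-boxes and the triangle is the N-box. Dok7 and Agrn have 2 windows each, numbered by coordinate, and 1 window of each holds no motif.

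Of the 12 member entries, 11 (91.7%) were called active, beside 70.2% of all entries in the table. By gene, 9 of 10 (90.0%) had an active entry, beside 68.7% of all gene symbols. All entries of the agrin-MuSK pathway were active, and Chrne was the inactive one. Activity of the active entries ran from 0.70 to 15.62 RPKmM with a median of 1.26, and the median of all active entries was 0.87. An activity of at least 1 RPKmM was listed for 7 of the 11 active entries (63.6%, beside 46.0% of all active entries), and 3 reached 2 RPKmM (27.3%, beside 25.0%), a share near that of all active entries. Chrna1 alone reached 10 RPKmM, a level that 2.89% of all active entries attained. The myoblast label was checked on markers: Myod1 (2.39 RPKmM), Myf5 (5.03), Des (72.45), Cdh15 (8.08), Itga7 (13.29) and Pax7 (0.55) were all active. Genes of differentiated muscle were also active, 8 of 8 on the list, among them Acta1 (6.85 RPKmM), Myh3 (5.28), Mylpf (5.18) and Myog (2.39, the value of Myod1). Cells that had begun to differentiate cannot be told apart from myoblasts in this pooled value, and their part in the levels of the subunit genes was not tested. Markers of blood, vessel, epithelial and fat cells were inactive (Ptprc, Cdh5, Epcam, Adipoq) or at 0.01 to 0.02 RPKmM (Pecam1, Cdh1).

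**Figure D2:**
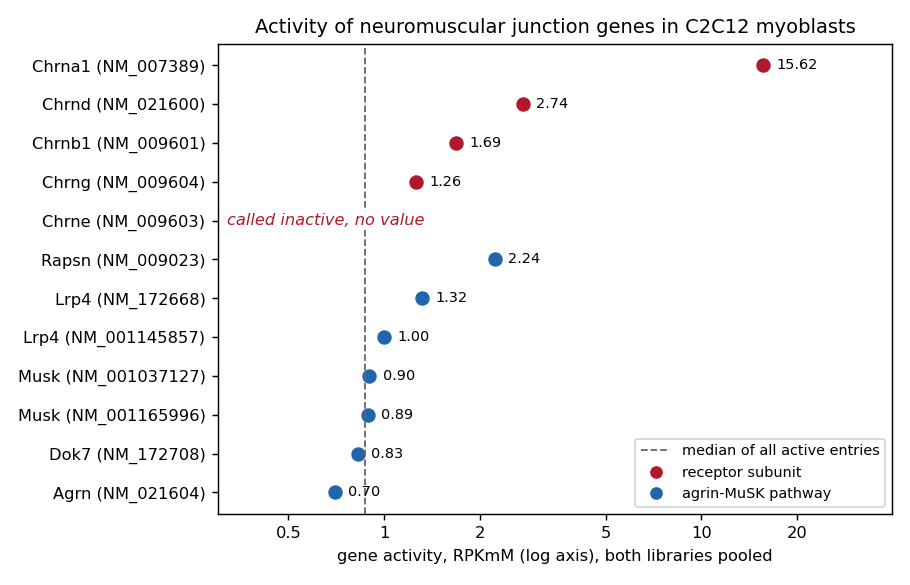
Gene activity of the 12 member entries in RPKmM on a log axis, 1 pooled value each without error bars, coloured by role; the dashed line is the median of all active entries (0.87). Chrna1 at 15.62 stands apart from the other entries, which lie between 0.70 and 2.74, and Chrne has no value.

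Among the receptor subunits, the alpha gene was transcribed far more than the others. Chrna1 (NM_007389), which encodes the subunit that carries most of the acetylcholine binding site, had an activity of 15.62 RPKmM and ranked 278 among the 16957 active entries, above 98.4% of them. On mm9 it occupies chr2:73401272-73418395 (minus strand). Its activity was 5.70 times that of Chrnd, 9.24 times that of Chrnb1 and 12.4 times that of Chrng. Rounding moves the last of these ratios only from 12.3 to 12.5. These values are densities of engaged polymerase and not amounts of mRNA or protein.

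Chrnd (NM_021600), the delta subunit, followed with 2.74 RPKmM, above 82.9% of active entries. Chrnb1 (NM_009601), the beta subunit, had 1.69 RPKmM, above 70.1%, and Chrng (NM_009604), the fetal gamma subunit, had 1.26 RPKmM, above 60.8%. These 3 subunits thus lay within a factor of 2.17 of each other, all above the median of active entries. Chrnd (chr1:89087227-89096644) and Chrng (chr1:89102386-89108410) are tandem genes, both on the plus strand, with 5.74 kb between them. Chrnb1 occupies chr11:69597538-69609445 (minus strand).

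The gamma and epsilon genes, which exchange with each other during muscle maturation, fell on opposite sides of the activity call. Chrng was active at 1.26 RPKmM, and Chrne (NM_009603; chr11:70428385-70432718, minus strand) was called inactive and carries no number. No ratio between them can be given. By its span in the annotation, Chrne is the shortest member at 4.33 kb, while Chrng is 6.03 kb long. Without its first 1 kb, the span of Chrne holds 3334 bp. The mappable bases that the authors counted for the RefSeq entry may differ and were not computed. Among entries of genes of 3 to 6 kb in the annotation, 59.6% were called active, beside 75.8% of entries of longer genes. This division by length was chosen after the call of Chrne had been seen, and the part of length in the call was not tested.

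The pathway that clusters the receptor was transcribed at moderate levels, with rapsyn highest. Rapsn (NM_009023; chr2:90875777-90885886, plus strand) had 2.24 RPKmM, above 78.1% of active entries. This places the scaffold between Chrnd and Chrnb1, the receptor chains nearest to it in level. Lrp4, the agrin receptor, has 2 entries, NM_172668 at 1.32 RPKmM and NM_001145857 at 1.00, so its own entries differ by a factor of 1.32. Both belong to 1 gene (chr2:91297668-91354058, plus strand) and are not independent values. Chrng, at 1.26 RPKmM, lies between them.

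Musk, the kinase (chr4:58298834-58390290, plus strand), also has 2 entries, at 0.90 (NM_001037127) and 0.89 RPKmM (NM_001165996), whose rounding intervals touch. With 91.5 kb it is the longest member. Dok7 (NM_172708; chr5:35399462-35430488, plus strand) had 0.83 RPKmM, and the higher Musk entry was 1.08 times that. Agrn (NM_021604; chr4:155539399-155571536, minus strand) had the lowest value of all active members, 0.70 RPKmM. Musk, Dok7 and Agrn lay close to the middle of the active entries, above 51.0%, 48.6% and 44.0% of them. With inactive entries included, they lay above 65.6%, 63.9% and 60.7% of all entries. The agrin-MuSK pathway thus spanned a factor of 3.20 from Agrn to Rapsn, and the 4 active receptor subunits a factor of 12.4 from Chrng to Chrna1.

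**Figure D3:**
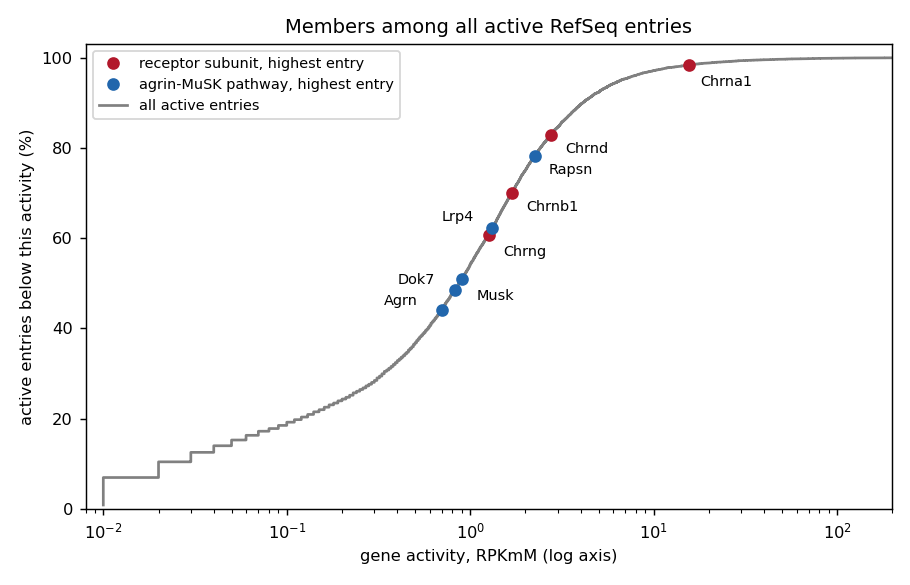
Cumulative share of all 16957 active entries (grey line, vertical axis in percent) against gene activity in RPKmM on a log axis, with the highest active entry of each of 9 member genes as a point coloured by role. Agrn, Dok7 and Musk sit near the middle of the curve at 44.0% to 51.0%, while Chrna1 sits at 98.4%.

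With the highest entry per gene, the 4 active receptor subunits had a median of 2.21 RPKmM and the 5 pathway genes 0.90, a ratio of 2.46. The order of all active entries from the highest was Chrna1, Chrnd, Rapsn, Chrnb1, the higher Lrp4 entry, Chrng, the lower Lrp4 entry, both Musk entries, Dok7 and Agrn. Neighbours in this order after Chrnd differed by factors of 1.01 to 1.33. Apart from the pair of Musk entries, every step in the order exceeded rounding, but without a value per library it is unknown whether such small steps exceed the variation between libraries. The step from Chrna1 to Chrnd, at 5.70-fold, was the largest.

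The activity of the subunit genes was set beside that of the other acetylcholine receptors, which serve neurons and tissues other than skeletal muscle. Of 11 neuronal nicotinic subunit genes, 10 were inactive (Chrna2 to Chrna7, Chrna9, Chrna10, Chrnb3 and Chrnb4), and Chrnb2 had 0.06 RPKmM. The active share was thus 9.09%, beside 68.7% of all gene symbols. Of the 4 muscarinic receptor genes with an entry, Chrm1 and Chrm2 were inactive, Chrm3 was active but listed at 0, and Chrm4 had 0.03 RPKmM. The lowest active muscle subunit, Chrng, was thus at 1.26 RPKmM and the highest other acetylcholine receptor gene at 0.06. The muscle receptor belongs to the Cys-loop channels, together with the GABA-A, glycine and serotonin type channels. Among 26 genes of those channels, a list drawn up after the values had been seen, 5 (19.2%, beside the same 68.7%) were active, and the highest were Gabre at 0.65 RPKmM and Glrb at 0.26.

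**Figure D4:**
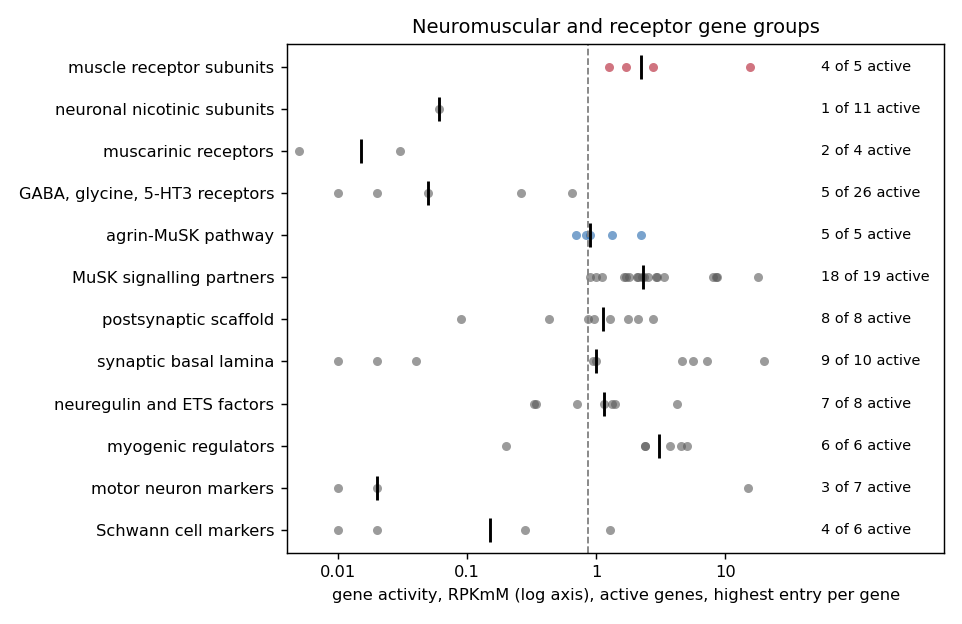
Gene activity in RPKmM on a log axis for each active gene (highest entry) of 12 gene groups; short black bars are group medians, the dashed line is the median of all active genes (0.87), and the text at the right counts active genes. The 4 active muscle subunits lie to the right of every active neuronal nicotinic, muscarinic and other Cys-loop gene; Chrm3, listed at 0, is drawn at the left edge.

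The protein families that hold a pathway member were examined in the same way, again on lists drawn up after the values had been seen, and beside 68.7% of all gene symbols active. Musk ranked 18 among the 40 active receptor tyrosine kinase genes of 58 in the table (69.0%), whose median was 0.63 RPKmM and whose highest member was Axl at 7.72. Lrp4 ranked 5 among 8 active genes of the LDL receptor family of 9, where Lrp1 was highest at 7.11 RPKmM. The median of these 8 was 1.34 RPKmM, just above Lrp4 at 1.32. Dok7 ranked 2 among 6 active genes of the 7 Dok adaptors, below Dok1 at 16.27 RPKmM and above Dok4 at 0.40, with a median of 0.27. Dok1 was 19.6 times Dok7, so the second place of Dok7 lay far from the first.

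The kinases, adaptors and cytoskeletal proteins that act with MuSK were active but for 1 gene. Of 19 such genes, 18 had an active entry, with a median of 2.31 RPKmM, beside 68.7% of all gene symbols active with a median of 0.87. Ctnnb1, the Wnt effector beta-catenin, was highest at 18.10 RPKmM, followed by Cttn (8.70), Crk (8.46) and Macf1 (7.97), which act on the actin and microtubule cytoskeleton or, for Crk, bind phosphorylated DOK7. Crkl had 2.35 RPKmM, Pak1 2.95, Src 2.89 and Abl2 3.36. All of these exceeded Musk and Dok7 themselves, and Ctnnd2 was the inactive gene of the list. Syne1, which anchors the synaptic nuclei, had 2 active entries at 0.72 and 0.89 RPKmM and 1 inactive entry.

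The postsynaptic scaffold list was active in full, with 8 of 8 genes (beside 68.7% of all gene symbols) and a median of 1.12 RPKmM (0.87 for all active genes). Utrn, which encodes the synaptic dystrophin homologue utrophin, was highest at 2.78 RPKmM and Dag1, dystroglycan, had 2.12. Sntb1 had 0.43 RPKmM, and Scn4a, the sodium channel of mature muscle, had 0.09. Of the synaptic basal lamina genes, 9 of 10 were active, beside 68.7% of all gene symbols, but over a wide range. Nid1 (19.80 RPKmM), Lamb2 (7.17), Hspg2 (5.59) and Lama5 (4.59) were high, whereas Ache, the acetylcholinesterase gene, had 0.04, Colq, the collagen tail that anchors this enzyme, 0.02 and Lama4 0.01. Col13a1 was inactive. Scn4a, Ache and Colq thus had values far below those of every active member, Agrn at 0.70 included.

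Of the listed neuregulin pathway and ETS factor genes, 7 of 8 were active, and of the myogenic regulators with an entry 6 of 6, beside 68.7% of all gene symbols. Gabpa, the DNA-binding chain of GABP, had 0.71 RPKmM and the 4 Gabpb1 entries 1.11 to 1.14. The ETS factor genes Etv4 and Etv5 had 4.20 and 0.33 RPKmM. The neuregulin receptor genes Erbb2 and Erbb3 had 1.39 and 1.32, Erbb4 was inactive and Nrg1 itself had 0.34 RPKmM. Myog, the myogenic factor of differentiating cells, had 2.39 RPKmM, the same listed value as Myod1, and Mef2a, Mef2c and Mef2d had 3.71, 0.20 and 4.57. Myf6 has no entry in the table.

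The neighbouring genes were taken from the mm9 annotation, with only protein-coding genes whose symbol has an entry in the table. Noncoding genes and genes under another symbol were passed over, so a nearer gene may exist. No listed protein-coding gene overlapped a member. Chrna1 at 15.62 RPKmM exceeded both of its same-strand neighbours, Wipf1 at 3.39 (33.5 kb downstream) and Chn1 at 0.88 (30.3 kb upstream). Chrnd likewise exceeded Ecel1 at 0.01 and its tandem neighbour Chrng. In contrast, Chrng lay below Chrnd and below Eif4e2, which begins 2.08 kb downstream at 7.33 RPKmM. Rapsn lay below Celf1 (6.55 RPKmM, 16.1 kb upstream) and Psmc3 (3.78, 8.28 kb downstream). The other 5 active members lay between their neighbours.

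Among these protein-coding neighbours, the next upstream gene lies on the same strand for 5 members. Polymerases running past its end could enter the member. The gap was shortest for Chrnb1, 0.124 kb from the end of Fgf11, which had 0.52 RPKmM, below the 1.69 of Chrnb1. For Chrng it was 5.74 kb from Chrnd, for Dok7 8.38 kb from Hgfac at 0.05 RPKmM, for Rapsn 16.1 kb from Celf1 and for Chrna1 30.3 kb from Chn1. The upstream gene was the more active one for Chrng and Rapsn. Its part in their values was not tested. Chrne has Mink1 (2.49 RPKmM) 0.399 kb beyond its end on the opposite strand, and reads were counted on the sense strand only.

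**Figure D5:**
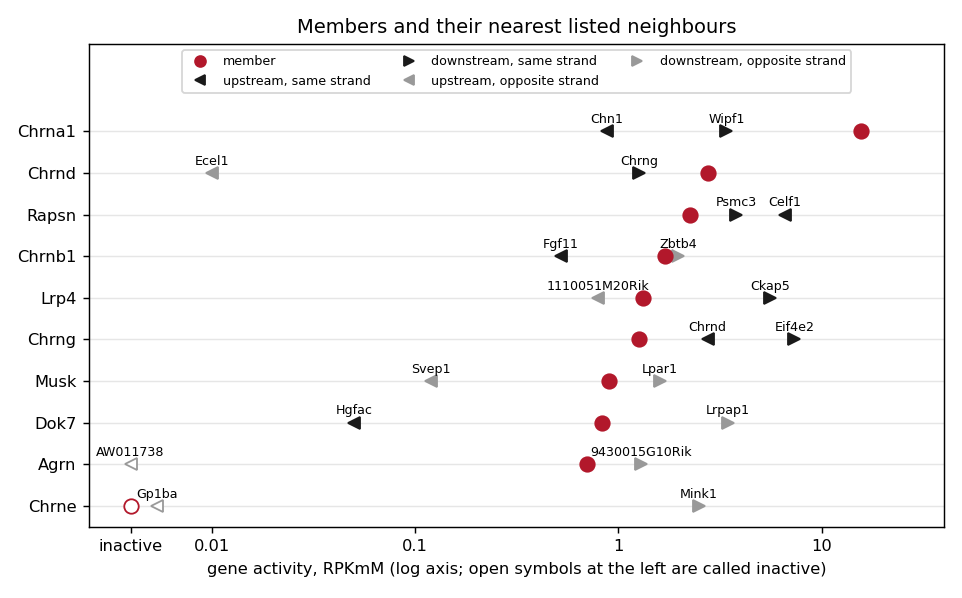
Gene activity in RPKmM on a log axis of each member (circle, highest entry) and of its nearest upstream (left-pointing) and downstream (right-pointing) neighbour. Neighbours are annotated protein-coding genes whose symbol has an entry in the table, dark where on the same strand and grey where on the opposite strand. Open symbols at the left are genes called inactive. Chrna1 and Chrnd exceed both neighbours, and Chrng and Rapsn lie below both.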

How the data were processed

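GRO-seq libraries of untreated C2C12 myoblasts (2 replicates) were made by the authors, who aligned the reads to mm9 with Bowtie2 (base calls by CASAVA 1.8, per the labels), trimmed and remapped failing reads, kept uniquely mapped reads, discarded reads at rRNA and tRNA repeats and pooled the libraries. The authors deposited activity in RPKmM, an RPKM over mappable bases of the sense strand from 1 kb past the TSS to the TES, with the word Inactive for entries not above the gene-desert background. Pooling hides variation between libraries, and the depth is not in the table. That word keeps the column from an automatic check of its unit, which was read from its header and the study's methods.

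Here, counts, medians, ratios and ranks were computed over the whole table, without tests, since 1 pooled value exists per entry. The values named are those of all members, of lists of related genes and markers, and of the nearest neighbours. The members and lists were chosen with earlier results of these data known, and the family lists, the 3 to 6 kb class and the motif CAGCTG after seeing the values. Gene positions came from GENCODE vM1 (NCBIM37, the same build as mm9), where 10 of 10 members matched, and promoters from RefSeq on GRCm38.p6; coordinates of the 2 builds were not mixed. Calculations were tested on inputs with a known answer. These were deposited activities multiplied by a set factor, fixed numbers, and random sequences with motifs placed in them. Python 3.11.15, numpy 2.4.6, pandas 2.3.3, scipy 1.17.1 and matplotlib 3.10.9 were used. Protein sequences were not analysed here, and the values of some listed genes are not reported here. Alternatives were 1 entry per gene, inactive entries as 0, geometric means with a pseudocount of 0.01, entries of at least 10 kb, an activity of at least 0.01, other sets for ranking and the 250 bases before the start.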

Additional observations from a re-analysis of the deposited data

How the results depend on the processing

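The number of active member entries, 11, was 11 with activities of at least 0.01 RPKmM only and 9 with 1 entry per gene symbol. The median of active member entries, 1.26 RPKmM, was 1.26 with the lowest entry per gene, 1.32 with the highest, 1.13 with inactive entries counted as 0, 1.55 as a geometric mean with a pseudocount of 0.01, and 1.00 with entries of at least 10 kb only, which leaves out Chrnd, Chrng and Chrne. The ratio of receptor to agrin-MuSK medians, 2.46, was 2.49 with the lowest entry per gene, 1.88 with Chrne counted as 0 and 2.83 with geometric means. The share of active entries below a member ran from 44.0% to 98.4%, from 43.9% to 98.4% over genes and from 60.7% to 98.8% over all entries. The counts of member genes with a motif were equal in the 250 bases before the start. No paired analysis was possible because the 2 libraries were pooled into 1 value, and no library could be left out for the same reason.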

Other observations

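Genes of differentiated muscle were active in these myoblasts. Each of the 8 listed genes had an active entry, beside 68.7% of all gene symbols, with Acta1, skeletal alpha-actin, at 6.85 RPKmM, Myh3, embryonic myosin heavy chain, at 5.28 and Mylpf, a fast myosin light chain, at 5.18. Actc1 had 1.89, Tnnt3 0.83, Tnnt1 0.73 and Ckm, muscle creatine kinase, 0.20. Chrna1 was above every gene of this list, and Chrnd, at 2.74, lay between Myog at 2.39 and Mylpf.

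Of 7 listed genes of the nerve side of the junction, 3 (42.9%) were active, beside 68.7% of all gene symbols. Chat and Slc18a3, which make and load acetylcholine, were called inactive together with Isl1 and Mnx1, while Slc5a7, the choline transporter, had 0.01 RPKmM and Prph 0.02. Nefm, a neurofilament gene on the same list, stood apart at 15.13 RPKmM, next to Chrna1 at 15.62. Of the Schwann cell markers, Sox10 and S100b were inactive, Mbp entries had 0.01 to 0.02 RPKmM, and Egr2, also an immediate early gene, had 1.29.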
